A study of Arabidopsis thaliana with 4 samples.

Results

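The genes that set the upper and lower faces of the leaf were examined in 4 RNA sequencing libraries of the rosette core of Arabidopsis thaliana. The set holds 10 loci, listed by name under a rule that uses no measured value, though earlier results of these data were known. The 6 of the abaxial (lower) side are KAN1, KAN2, YAB1, YAB2, YAB3 and YAB5, and the 4 of the adaxial (upper) side are PHB, PHV, REV and AS1. They are 10 of the 32678 loci in the count table, and 8 of them have 1 transcript model and could be given a level. YAB3 and YAB5 have 2 models each, and their counts are given without a level. All 4 libraries form 1 group: plants of the accession Col-0, 31 days old, labelled as without treatment. All came from seed kept cold at 4 °C after sowing, and grew in 16-h days at 22 °C under light of 100 µE per square metre and second. Each core was the central 1.5 to 2 cm of a rosette. Tissue of this kind includes the shoot apex and young leaves as well as parts of older leaves. With no second group, the data give levels, ratios within the same RNA and the spread between cores. The labels do not say that the cores came from separate plants, so p-values measure how far these samples scatter, and that scatter may be technical.

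A leaf starts as an outgrowth of the shoot apex and becomes flat because its faces take on different identities. HD-ZIP III transcription factors (PHB, PHV and REV among them) act on the adaxial side, and KANADI and YABBY transcription factors act on the abaxial side. The groups hold each other in check. The microRNAs miR165 and miR166 cut HD-ZIP III transcripts on the abaxial side, and AS1 acts with AS2 in the young leaf to keep KNOX meristem genes off and to limit abaxial genes.

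The libraries held 5639486 to 7692788 counts. Levels are in CPM, counts scaled to a common library size by TMM on nuclear loci with 1 model. A count of 0 allows a level of up to 3 counts, which is 0.419 to 0.565 CPM. Shoot markers were present: the meristem genes STM and KNAT1 averaged 192 ± 92.9 and 162 ± 88.1 CPM (SD, n = 4), and the light-harvesting gene LHCB1.3 was at 19450 to 28530 CPM. The epidermal gene PDF1, the phloem gene SUC2 and the xylem gene XCP2 were at 997, 74.7 and 78.1 CPM. The floral genes AP1 and AP3 were at 11.6 ± 2.27 and 2.59 ± 1.04 CPM. Of the root markers, EXPA7 had no counts, RHD6 had 1 and MYB36 had 25 in all. WUS, a stem cell regulator of the meristem, had 1 count in all, and CLV3 and ATML1 have several models and no level.

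The link between the microRNAs and the HD-ZIP III genes is visible in sequence. The reference annotation (RefSeq, TAIR10.1) lists 9 genes for miR165 and miR166, and their mature products of 21 bases share 1 seed, bases 2 to 8, in capitals here. The 2 miR165 genes give 1 sequence and the 7 miR166 genes another, which differ at 1 base outside the seed.
miR165: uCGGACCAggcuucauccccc
miR166: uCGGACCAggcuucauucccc

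All spliced coding sequences of 27444 nuclear loci were searched for the reverse complement of either microRNA with at most 3 mismatches, a G-U pair counting as a mismatch. A match was found in 5 loci (0.0182%), which are PHB, PHV, REV and the other HD-ZIP III genes of the genome, CNA and HB8. The sites are shown because they are the sequence that sets these genes apart from the other regulators described here. Capitals mark the bases that face the seed.
PHB: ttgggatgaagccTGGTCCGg
PHV: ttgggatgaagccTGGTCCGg
REV: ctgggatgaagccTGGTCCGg
HB8: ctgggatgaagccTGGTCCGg
CNA: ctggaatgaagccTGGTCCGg

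In each of the 5 genes the site spans a splice junction, with 11 bases in 1 exon and 10 in the next. In TAIR10.1 the pieces lie at chr2:14642656-14642666 and chr2:14642530-14642539 (minus strand) for PHB, and at chr1:10799435-10799445 and chr1:10799330-10799339 (minus strand) for PHV. For REV they lie at chr5:24398787-24398797 and chr5:24398889-24398898 (plus strand). PHB, PHV, REV and HB8 have 3 mismatches to miR165 and 4 to miR166, and CNA has 4 and 3. A match is a description of the sequence and no measurement of cleavage.

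Per kb of exon the 8 measured regulators fell into an order with AS1 and YAB1 at the top and both KANADI genes at the bottom. AS1 averaged 59.9 ± 5.30 CPM per kb (SD, n = 4) and YAB1 56.6 ± 3.12 CPM per kb. YAB2 followed with 39.1 ± 4.49 CPM per kb. The HD-ZIP III genes came next, REV with 27.3 ± 4.92, PHV with 25.4 ± 3.18 and PHB with 21.4 ± 4.01 CPM per kb. KAN1 averaged 9.63 ± 0.701 and KAN2 9.03 ± 1.75 CPM per kb. For KAN2 and YAB1 the length is uncertain: the reference annotation has 3 and 2 models for them, which share 24.8% and 62.1% of the exon bases, while the count table has 1 each. If the counted model is shorter than the union of exons used here, the level per kb is too low, so the places of KAN2 and YAB1 in the order depend on it. Neither side as a whole was the higher one: the abaxial genes stood both near the top (YAB1 and YAB2) and at the bottom (KAN1 and KAN2). In bulk tissue, fewer cells of a type and less RNA per cell cannot be told apart.

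**Figure D1:**
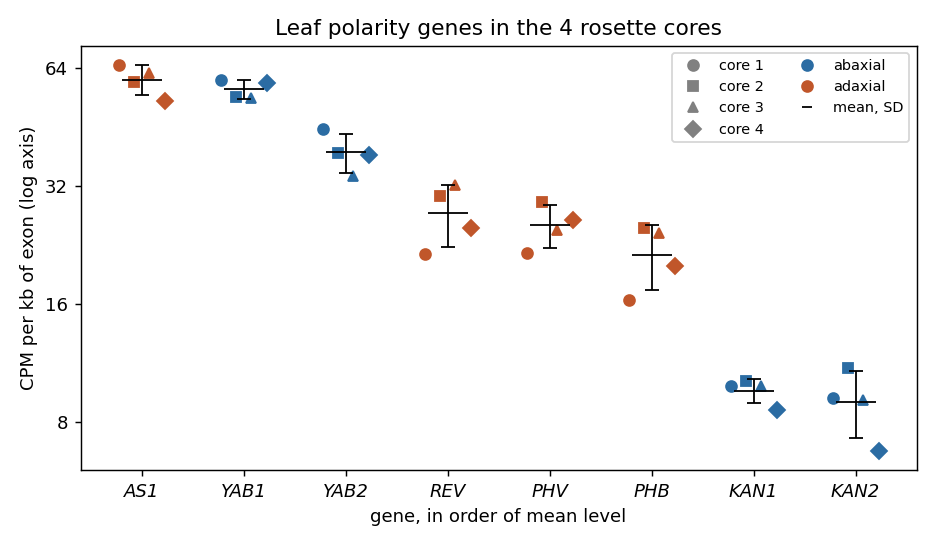
Level of each measured gene in CPM per kb of exon (log axis), in order of the mean; symbols are the 4 cores, colours the abaxial and adaxial side, and bars the mean with its SD. AS1 and YAB1 lie at 52.9 to 65.2 CPM per kb in every core, and KAN1 and KAN2 at 6.75 to 11.02.

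Neighbours in this order were compared by the log2 ratio of their length-corrected counts within each core. With 4 cores an exact two-sided sign-flip permutation test cannot give a p below 0.13 (1 in 8), so no ratio can pass 0.05 by that test. AS1 and YAB1 did not differ beyond the spread of their ratio (mean log2 ratio 0.08 ± 0.16 SD, AS1 higher in 3 of 4 cores, exact p = 0.5). The same held for REV over PHV (0.09 ± 0.20, REV higher in 2 of 4, exact p = 0.75) and for KAN1 over KAN2 (0.11 ± 0.19, KAN1 higher in 3 of 4, exact p = 0.5). A difference larger than its SD and of 1 sign in 4 of 4 cores was seen for the remaining neighbours, each with the smallest p the test allows. YAB1 exceeded YAB2 by 0.54 ± 0.12, YAB2 exceeded REV by 0.53 ± 0.42, and PHB was lower than PHV, with a log2 ratio of -0.26 ± 0.17. The widest step was PHB over KAN1 at 1.13 ± 0.28, a 2.19-fold difference. Per kb of coding sequence this step was 0.45, YAB2 over REV was 1.18, YAB1 over YAB2 was 0.23, and the order of the genes was the same except that KAN2 stood above KAN1. With no length term the log2 ratio of YAB2 over REV turned to -1.01, so its direction rests on the length correction.

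Against the 20912 nuclear protein-coding genes with 1 model, whose median was 4.99 CPM per kb, all 8 lay above the middle. AS1 and YAB1 stood at percentiles 89.6 and 89.0, YAB2 at 84.2, the HD-ZIP III genes between 74.3 and 78.7, and KAN1 and KAN2 at 60.0 and 59.0.

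**Figure D2:**
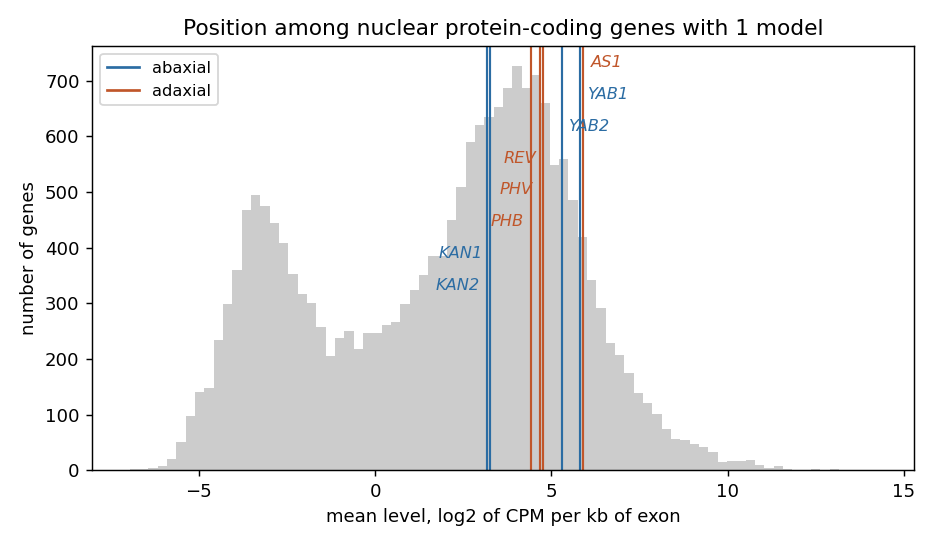
Number of nuclear protein-coding genes with 1 model and at least 1 count, by mean level (log2 of CPM per kb of exon), with lines at the 8 measured regulators. KAN2, the lowest, stands at percentile 59.0 and AS1, the highest, at 89.6 of all 20912 such genes, those without a count included.

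Among the adaxial genes, REV (AT5G60690, chromosome 5, 24396981 to 24402195, plus strand), which also acts in vascular and axillary meristem development, had 76.2, 107, 115 and 88.7 CPM in cores 1 to 4. It was lowest in core 1 and highest in core 3. PHB (AT2G34710, chromosome 2, 14639323 to 14644355, minus strand) had 51.4, 78.6, 76.3 and 63.1 CPM in cores 1 to 4. Its values followed those of REV closely: the log2 ratio of REV over PHB per kb was 0.39, 0.28, 0.42 and 0.32 in cores 1 to 4, with a mean of 0.35 and an SD of 0.06 (exact p = 0.13). PHV (AT1G30490, chromosome 1, 10796124 to 10801093, minus strand), the closest relative of PHB, had 66.4, 89.9, 75.9 and 80.6 CPM in cores 1 to 4. It was also lowest in core 1, and highest in core 2.

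The further HD-ZIP III gene with 1 model, HB8, which is active in the forming vein, had 29.1, 43.9, 47.9 and 39.8 CPM in cores 1 to 4, so that all 4 measured genes of the family had their lowest value in core 1. This held with TMM scaling, with library totals and with DESeq2 size factors. Core 1 was the lowest core for 22.3% of the 12771 genes tested, and this feature of the family was picked after its values were seen. It was shared by 5 other genes among the 25 tested regulators and pathway genes, namely ARF3, ARF4, AGO7, RDR6 and SE. Departures from each gene's own mean (log2 CPM) differed by a root mean square of 0.06 between PHB and REV, 0.08 between PHB and HB8 and 0.08 between REV and HB8. Those of PHV were further off, at 0.15 from PHB, 0.18 from REV and 0.19 from HB8. Such closeness was not particular to the family. KAN1 and AS1, of different families, differed by 0.07 and YAB1 and YAB2 by 0.10, while YAB2 and PHB differed by 0.37. HB8 stood under REV per kb in 4 of 4 cores, with a log2 ratio of -1.11 ± 0.10 (exact p = 0.13). CNA, the fifth member of the family, has 3 models and no counts on any of them.

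**Figure D3:**
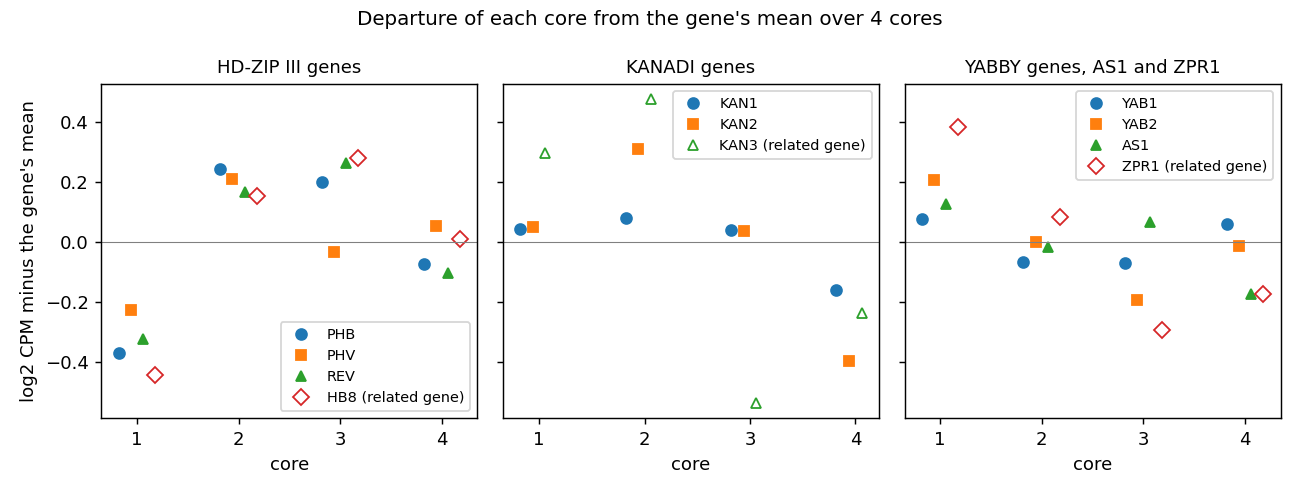
Log2 CPM of each core minus the gene's mean over 4 cores, for HD-ZIP III genes (left), KANADI genes (middle) and YABBY genes with AS1 and ZPR1 (right); open symbols are related genes outside the set of 10. In core 1 the HD-ZIP III genes lie at -0.44 to -0.23, and YAB1, YAB2, AS1 and ZPR1 at 0.08 to 0.38. KAN1, KAN2 and KAN3 lie at 0.04, 0.05 and 0.30 there. The abaxial genes ARF3 and ARF4, not drawn here, were at -0.24 and -0.34 in core 1.

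AS1 (AT2G37630, chromosome 2, 15781232 to 15783480, minus strand), a MYB transcription factor, had 125, 113, 120 and 102 CPM in cores 1 to 4. It was the most abundant of the 8 in every core in CPM, and lowest in core 4. Along 17.2% of its exon length AS1 lies over AT2G37620 on the opposite strand. That locus has 2 models, so its 2 counts in all cannot be read as a level. AS2, the partner protein of AS1, has 4 models and 16, 11, 18 and 6 counts summed over them in cores 1 to 4, so no ratio of AS1 to AS2 was formed.

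The KANADI genes encode GARP transcription factors that repress adaxial genes. KAN1 (AT5G16560, chromosome 5, 5406863 to 5411766, minus strand) had 23.6, 24.3, 23.6 and 20.5 CPM in cores 1 to 4, a range of 0.24 on the log2 scale. KAN2 (AT1G32240, chromosome 1, 11625616 to 11630745, minus strand) had 23.6, 28.3, 23.4 and 17.3 CPM in cores 1 to 4, a range of 0.71. Both were highest in core 2 and lowest in core 4, and their means of 23.0 ± 1.68 and 23.2 ± 4.49 CPM were close. KAN1 did not vary beyond counting noise (chi-square adjusted p = 0.610), so its highest and lowest cores are not resolved. KAN3, a further member of the family, was at 17.8, 20.1, 9.95 and 12.3 CPM in cores 1 to 4 (10.7 CPM per kb), so its mean per kb was near those of KAN1 and KAN2. KAN4, known from the coats of the ovule, has 2 models and 36 counts in all. The exons of KAN1 overlap opposite-strand loci along 19.3% of their length. Most of that overlap (18.2%) is with AT5G02555, which has no row in the count table. The other partner, AT5G16550, covers 1.05% and had 436, 452, 241 and 214 counts in cores 1 to 4.

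The YABBY genes encode zinc finger and HMG-like transcription factors that promote blade growth from the abaxial side. YAB1, also called FIL (AT2G45190, chromosome 2, 18628252 to 18630779, minus strand), had 73.1, 66.1, 66.0 and 72.2 CPM in cores 1 to 4. Its coefficient of variation of 5.51% was the smallest of the 8. YAB2 (AT1G08465, chromosome 1, 2675813 to 2679824, plus strand) had 54.7, 47.4, 41.3 and 46.9 CPM in cores 1 to 4, highest in core 1 and lowest in core 3. The log2 ratio of YAB2 over REV per kb was accordingly 1.06, 0.36, 0.07 and 0.62 in cores 1 to 4. Per kb, YAB2 stood well above REV in core 1 and about level with it in core 3. In CPM, with no length term, YAB2 was below REV in every core, at 54.7 against 76.2 in core 1.

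YAB3 and YAB5, the close partners of YAB1 in the leaf, had 2 counts each over all 4 cores. For YAB3 (AT4G00180) both counts were in core 1, and for YAB5 (AT2G26580) 1 count was in core 3 and 1 in core 4. These counts cannot be read as levels. Averaged over the cores, the middle count was 55.5 for nuclear protein-coding loci with 1 model, against 0.5 with 2 models and 0.25 with at least 3. Loci with several models held 1.63 to 1.73% of the counts of each library. In the reference annotation the models of YAB3 share 80.8% of the locus's exon bases and those of YAB5 78.3%. Whether reads in shared bases were left out of the counts was not tested. Of the floral YABBY genes, CRC, which acts in carpels, was at 2.07 to 6.01 CPM, and INO, which acts in ovules, had 2 counts in all. The corepressors LUG, LUH and SEU, which work with YABBY proteins, all have several models and 0, 0 and 45 counts.

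**Figure D4:**
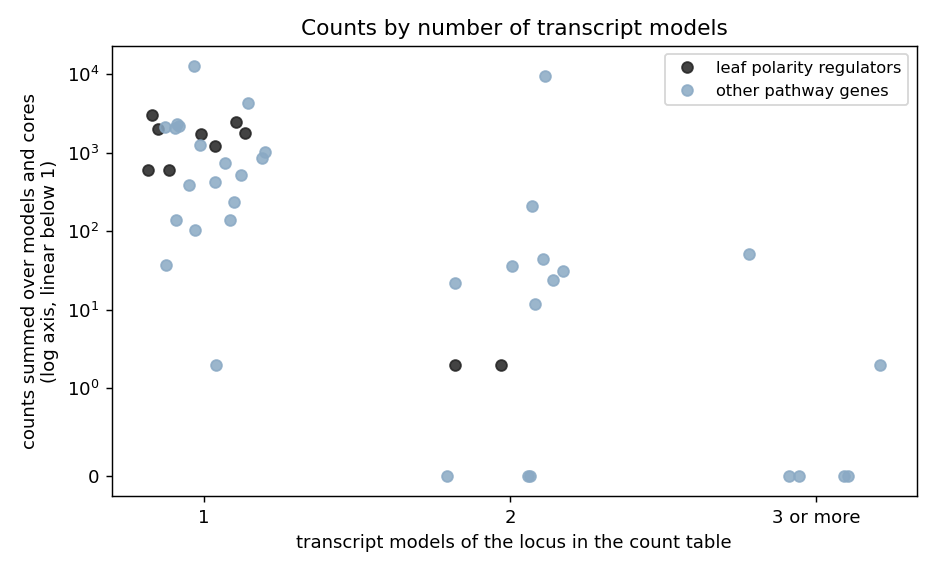
Counts summed over models and cores (log axis, linear below 1) against the number of transcript models of the locus, for the 10 leaf polarity regulators and the other pathway genes without microRNA precursors. The 8 regulators with 1 model hold 595 to 2977 counts and the 2 with 2 models hold 2 each.

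The regulators share few identical words of 50 bases with each other or with other loci. Only exact matches were counted, so likeness with mismatches was not measured. Of the 50-base words in their exons, 1.96% of those of PHV and 0.389% of those of PHB occur elsewhere in the nuclear genome, and none of those of the other 8 loci do. No identical word of this length therefore joins KAN1 with KAN2 or any of the 4 YABBY genes with each other.

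Variation between cores was about as frequent among the regulators as among genes at large. In a chi-square test of Poisson heterogeneity with Benjamini-Hochberg adjustment over all genes, 6 of the 8 measured regulators varied beyond counting noise, and so did 64.2% of all 12771 genes tested. A count so near the background is no result about the regulators. All 8 passed the filter on low counts, which asks in every library for the CPM that 10 counts make in a library of median size. The calls were REV (adjusted p = 5.66e-13), PHB (adjusted p = 7.45e-10), PHV (adjusted p = 3.62e-05), AS1 (adjusted p = 0.00241), KAN2 (adjusted p = 0.00351) and YAB2 (adjusted p = 0.00933), all from the chi-square test. YAB1 (adjusted p = 0.299) and KAN1 (adjusted p = 0.610) were not called by it. The PHB, PHV and REV calls were kept without any 1 core. The YAB2 call was lost without core 1 (adjusted p = 0.263) or core 3 (0.134), the KAN2 call without core 2 (0.0624) or core 4 (0.180), and the AS1 call without core 4 (0.198).

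Spread against genes of the same level gave no result particular to the regulators. That test, whose trend was fitted to these same genes, called no gene after adjustment. edgeR's quasi-likelihood test of each gene's dispersion against the trend called 0 of the 8 regulators and 0 of all 12771 genes after adjustment (0% of genes). At an unadjusted p under 0.05 it called 0 of the 8 regulators, and 677 genes (5.3%) in all. The median coefficient of variation was 12% over the 8 regulators and 16.6% over all genes tested. Among the regulators it ran from 5.51% for YAB1 to 19.4% for KAN2. These medians are not matched for level, and counting error makes the coefficient larger at low counts. The median chi-square per degree of freedom was 5.2 over the regulators and 4.7 over all genes tested.

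**Figure D5:**
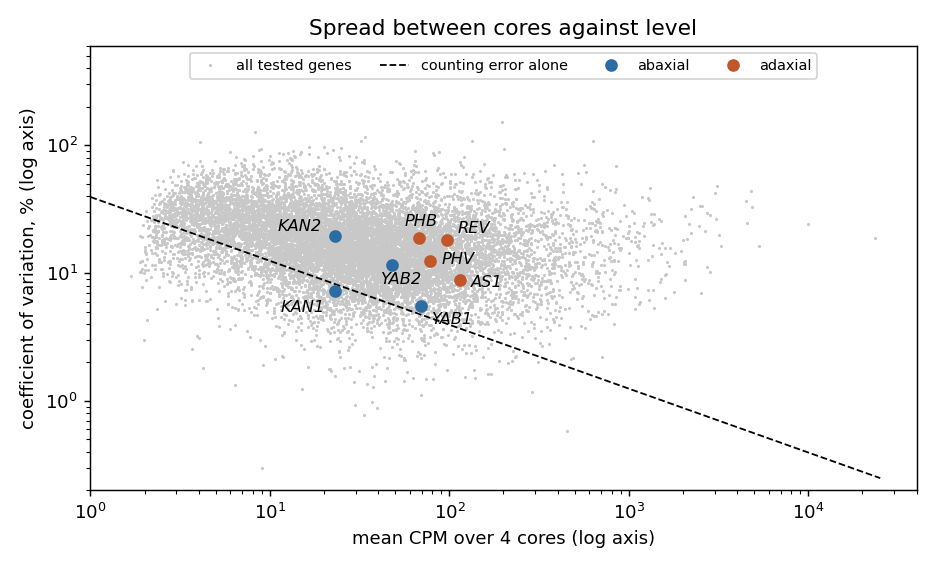
Coefficient of variation over the 4 cores (%, log axis) against mean CPM (log axis) for all 12771 tested genes in grey and the 8 measured regulators in colour; the dashed line is the spread that counting error alone would give at the mean library size. KAN1 (7.28%) and YAB1 (5.51%) lie near the line and PHB (18.7%), REV (18.0%) and KAN2 (19.4%) above it.

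The other genes of the pathway came from a list of 47 loci, 30 of them with 1 model, of which 17 passed the filter and 14 varied beyond counting noise by the chi-square test, beside 64.2% of all genes tested. The other 3 were AGO7 (adjusted p = 0.308), HYL1 (adjusted p = 0.215) and WOX1 (adjusted p = 1) by that test. The ZPR genes encode small zipper proteins that bind HD-ZIP III proteins and block them, and their transcription is raised by HD-ZIP III factors. ZPR1 had 103, 83.2, 64 and 69.7 CPM in cores 1 to 4 (82.6 ± 17.7 CPM per kb, chi-square adjusted p = 7.27e-15), highest in the core in which the HD-ZIP III genes were lowest. Core 1 was the highest core for 20.5% of all 12771 genes tested. ZPR3 and ZPR4 were lower, at 1.88 to 7.44 CPM and 3.37 to 9.38 CPM. Both were highest in core 2, where PHB and PHV were highest too. Core 2 was the highest core for 28.4% of all 12771 genes tested. Among the tested regulators and pathway genes it was the highest core for 13, these included. Whether the ZPR levels depend on the HD-ZIP III genes was not tested. The ZPR3 call was lost without core 4 (chi-square adjusted p = 0.303) and the ZPR4 call without core 2 (0.280), as was the HB8 call without core 1 (0.160).

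ARF3 (ETTIN) and ARF4 are abaxial auxin response factors that act with KANADI proteins and are held down on the adaxial side by small RNAs made from TAS3. ARF3 had 76.2, 107, 79.9 and 101 CPM in cores 1 to 4, and ARF4 67.1, 102, 90.6 and 83.5 CPM. Both were lowest in core 1 and highest in core 2, and ARF3 exceeded ARF4 per kb by a log2 ratio of 0.27 ± 0.20 (4 of 4 cores, exact p = 0.13). In core 3 that ratio was 0.003, and with no length term its mean was 0.08. The mean level per kb was 31.6 ± 5.24 CPM for ARF3, above the mean of each measured HD-ZIP III gene, and 26.3 ± 4.49 CPM for ARF4, between those of REV and PHV. With no length term ARF3 averaged 90.9 CPM, below REV at 96.7 CPM. The reference models of ARF3 share 60.6% of its exon bases, so its length is uncertain. The small RNA machinery was present: AGO7, which binds the trigger microRNA miR390, had 16.5 ± 1.82 CPM. RDR6 and SGS3, which both act in the making of the second strand, had 48.8 ± 14.1 and 19.97 ± 4.15 CPM. The TAS3 locus, with 2 models, had 31 counts in all, and ARF2, DCL4 and DRB4, with several models, had 2, 0 and 0. The SGS3 call of variation between cores was lost without core 2 (chi-square adjusted p = 0.221).

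The 11 precursor loci of miR165, miR166 and miR390 were nearly without counts, so that none passed the filter. MIR166A had 5, 1, 4 and 2 counts in cores 1 to 4, MIR166B 2, 2, 2 and 3, and MIR165B, MIR166D, MIR166F and MIR166G had none. Precursors are short-lived and these libraries did not target small RNA, so the counts say nothing of the mature microRNAs. HYL1 and SE, which act in microRNA processing, had 33.3 ± 2.89 and 82.9 ± 20.4 CPM, and SE was lowest in core 1 (65.1 CPM) and highest in core 3 (105 CPM). AGO1 and AGO10, the ARGONAUTE proteins that bind miR165 and miR166, have several models and 0 and 22 counts, and no ratio between them was formed.

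KNOX homeobox genes, which AS1 and AS2 repress in the leaf, varied widely between cores, with coefficients of variation of 54.5% for KNAT1 and 47.8% for KNAT2. KNAT1 had 153, 289, 97.1 and 109 CPM in cores 1 to 4 and KNAT2 32.9, 44.4, 14.1 and 20.7 CPM. STM, another KNOX gene of the meristem, had 194, 317, 95.7 and 162 CPM. KNAT1, KNAT2 and STM were highest in core 2 and lowest in core 3. Among all 12771 genes tested, core 2 was the highest core for 28.4% and core 3 the lowest for 29.4%. The share of genes with both was not computed, so the lack of this pattern among the 8 regulators is no result about them. KAN1, KAN2, PHB and PHV were highest in core 2 but were lowest in core 4 or core 1. Outside the set, KAN3 and ZPR4 also had their highest value in core 2 and their lowest in core 3. KNAT6 has several models and 12 counts in all. The part of meristem content in these patterns was not tested.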

How the data were processed

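Total RNA of 4 rosette cores was depleted of ribosomal RNA and sequenced on an Ion Proton with a strand-specific kit, per the labels' protocols. Torrent Suite 4.0.2 is named in the labels' protocols, and HTSeq and TAIR10 in the submitters' processing notes. Which aligner, counting mode and strand setting were used is not given in the sources used here. What the authors deposited are unnormalized counts, whole numbers for each TAIR10 transcript model.

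Models were summed per locus, and CPM were computed on nuclear loci with 1 model after TMM scaling (edgeR 4.0.16, R 4.3.3). Exon lengths (the union over models), coordinates and sequences come from RefSeq's TAIR10.1. Genes passing edgeR's filter for 1 group (in every library, the CPM of 10 counts in a library of median size) were tested for Poisson heterogeneity by chi-square, adjusted by Benjamini-Hochberg (threshold 0.05), and with edgeR's quasi-likelihood dispersion. Both tests were run on simulated counts, with Poisson noise for the chi-square test and 1 fixed dispersion for edgeR's. That was a check of the code and does not measure the power of either test in these data. Log2 ratios used a prior count of 0.5. Alternatives were DESeq2 1.42.0 size factors, library totals, no filter, all nuclear loci, other length terms, a prior count of 2 and leaving out each core. Intervals and floors cover counting error only.

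The regulators and lists were chosen with earlier results of these data known, so no p-value was adjusted over a list alone. The rule for named genes takes the 10 regulators, the pathway list and the 3 genes of at least 20 CPM nearest in pattern to the most abundant regulator.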

Additional observations from a re-analysis of the deposited data

Results flagged for a closer look

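In 1 of 35 sets of 4 values examined (the levels of 25 genes and 10 log2 ratios), 1 core stood apart from the others by Dixon's criterion, where chance gives about 1 in 20. The log2 ratio of PHB over KAN1 per kb was 0.72 in core 1 and 1.22 to 1.29 in the other cores, a gap of 0.865 of the range (critical value 0.829). The mean ratio was 1.13 with core 1 and 1.27 without it.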

How the results depend on the processing

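The level of each of the 8 regulators moved by less than 1 SD with DESeq2 size factors, with library totals and with models summed over all nuclear loci. It also moved by less than 1 SD without any 1 core. That outcome is no check, because at fixed scaling the loss of 1 of 4 values cannot move their mean by 1 SD. The number of regulators that varied beyond counting noise was 6 with each of the scalings and gene sets above and with no filter, and 4 to 5 without 1 core. Among all genes it was 6468 to 7548 without 1 core and 8195 to 8510 with the other scalings and gene sets, and 10586 genes had a DESeq2 dispersion above 0. edgeR's quasi-likelihood dispersion called 0 regulators, 0 pathway genes (14 by the chi-square test) and 0 of all genes (8200 by the chi-square test). That test asks for spread beyond genes of the same level, which is a different question. Length set the ratios between genes. With no length term YAB2 over REV reversed to -1.01, REV over PHB was 0.52, HB8 over REV -1.27, AS1 over YAB1 0.73 and PHB over KAN1 1.53. With coding length YAB1 over YAB2 was 0.23, REV over PHB 0.54, HB8 over REV -1.26, YAB2 over REV 1.18 and PHB over KAN1 0.45. A prior count of 2 moved no ratio by more than its SD. No paired analysis was possible because all 4 libraries belong to 1 group. Levels of loci with several models, YAB3 and YAB5 among them, cannot be had from these counts.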

Other observations

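WOX1, a homeobox gene of the leaf margin where the faces meet, was the most even gene of the pathway list. It had 9.09, 9.08, 9.03 and 9.04 CPM in cores 1 to 4 (65, 61, 59 and 48 counts), a coefficient of variation of 0.298%, although the 95% exact Poisson interval of its mean level runs from 7.94 to 10.3 CPM. PRS, also called WOX3, which acts with WOX1, was at 0.699 to 2.14 CPM and did not pass the filter. PGY2, a ribosomal protein gene whose loss enhances leaf polarity defects, had 521, 497, 417 and 514 CPM in cores 1 to 4.

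The genes with 1 model nearest in pattern to AS1, the most abundant regulator, were AT5G03030, PME3 (AT3G14310) and AT3G17250. Of its exon length, 32% of AT5G03030 lies over a gene on the opposite strand. Their centred log2 CPM over 4 cores differed from that of AS1 by a root mean square of 0.00609, 0.0122 and 0.0138 among 8080 genes compared. With 4 values per gene such closeness says little about any single gene.

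PGY3 shows that several models do not always empty a locus: its first model held 2599, 1925, 2478 and 2396 counts in cores 1 to 4 and its second none.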
